A study of Mus musculus with 11 samples.

Results

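Bone morphogenetic proteins (BMPs) and growth and differentiation factors (GDFs) are secreted ligands of the TGF-β superfamily. The 10 ligand genes described here are Bmp2, Bmp3, Bmp4, Bmp5, Bmp6, Bmp7, Bmp8a, Gdf5, Gdf6 and Gdf10. They were taken by gene symbol from a merged count table of 22600 mouse genes, and the set was chosen with earlier results of these data known. Each mouse gave 1 RNA library from a whole distal tibia, cut at the junction with the fibula, and the 11 libraries comprised 4 Control and 7 BMAd-DTA mice. All mice were 24 weeks old, of the C57BL6/SJL background and fed ad libitum. The labels give no sex. The study's legend to the figure with the RNA-seq panels describes male mice given calcein injections before dissection. It does not say whether every sequenced mouse was injected.

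Every mouse, Controls included, carried Osterix-FLPo and FAC, a Cre cassette in the endogenous Adipoq gene that FLPo turns into its active orientation. Controls had the BMAd-WT genotype. BMAd-DTA mice also carried ROSA-DTA, in which Cre removes a stop cassette so that diphtheria toxin A kills the cell. The model therefore targets cells with a history of Osterix and current expression of Adipoq, which are mainly bone marrow adipocytes (BMAds) and, per the study, a small subset of the adipocyte precursors of the marrow. Cre sits in the Adipoq gene, and the study notes low circulating adiponectin in mice that carry the Cre alone. The question addressed here is whether RNA of the BMP and GDF ligands in the bone differed with the loss of these adipocytes.

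BMP ligands are made as precursors that proprotein convertases cleave, and the mature dimers bind type I and type II receptor kinases on the cell surface. The receptors phosphorylate SMAD1, SMAD5 and SMAD9, which join SMAD4 in the nucleus and raise target genes such as the Id family. BMPs were named for their capacity to induce bone, and osteoblasts, osteocytes, chondrocytes, endothelium and marrow stroma are among the skeletal sources. Secreted antagonists such as noggin, gremlins and chordin bind the ligands and keep them from their receptors. BMP3 and GDF10 (also called BMP3B) form a divergent branch of the family, and BMP3 opposes osteogenic BMP signaling.

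Total counts assigned to genes ran from 16969529 to 18637663 per library. All 10 ligands passed the filter on low counts and were among the 16496 genes tested. Their mean counts per library ranged from 9.82 for Gdf5 and 17.4 for Gdf6 to 1947 for Gdf10, so that the 2 rarest ligands were measured least precisely. Markers of the labelled tissue were present in every library. The 10 osteoblast and osteocyte markers summed to 3243 to 13476 CPM (read counts scaled by library size) in Control and 16347 to 36614 CPM in BMAd-DTA, without overlap. The 10 adipocyte markers summed to 1074 to 1791 CPM in Control and 436 to 1289 CPM in BMAd-DTA, with overlap. All 10 had a negative fold change, as did 8189 of all 16496 genes. The unadjusted edgeR p was under 0.05 for 6, all lower, against 8.53% of all genes lower. Every BMAd-DTA mouse lay below every Control for 2 of the 10, against 1.04% of all genes. Retn, which encodes the adipocyte hormone resistin, was the only marker of the adipocyte list to pass the test (log2 fold change -1.38, edgeR adjusted p = 0.0205). Of all tested genes, 0.00606% were called lower. Skeletal muscle markers summed to 16.1 to 1321 CPM in Control and 17.2 to 1044 CPM in BMAd-DTA and thus varied widely within both groups.

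Promoter windows of 250 bases upstream of the RefSeq start (assembly GRCm38.p6) were given for 5 of the ligands, namely Bmp4, Bmp5, Bmp6, Bmp8a and Gdf10. Gdf10, Bmp4 and Bmp5 are printed because their unadjusted p was under 0.05 in the comparison of genotypes described afterwards. Each runs 5′ to 3′ on the strand of the gene, and capitals mark GGGCGG or its reverse complement, the core of the GC box. The Gdf10 window lies at chr14:33923337-33923586 on the plus strand, the Bmp4 window at chr14:46390670-46390919 on the minus strand and the Bmp5 window at chr9:75775115-75775364 on the plus strand. Each lies immediately upstream of the annotated gene, except that the last base of the Bmp5 window is the first base of its gene in the GENCODE M21 annotation.
Gdf10: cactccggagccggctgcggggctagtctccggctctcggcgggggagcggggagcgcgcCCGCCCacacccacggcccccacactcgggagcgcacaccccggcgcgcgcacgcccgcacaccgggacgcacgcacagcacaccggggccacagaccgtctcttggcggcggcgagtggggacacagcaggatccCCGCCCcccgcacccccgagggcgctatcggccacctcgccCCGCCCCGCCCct
Bmp4: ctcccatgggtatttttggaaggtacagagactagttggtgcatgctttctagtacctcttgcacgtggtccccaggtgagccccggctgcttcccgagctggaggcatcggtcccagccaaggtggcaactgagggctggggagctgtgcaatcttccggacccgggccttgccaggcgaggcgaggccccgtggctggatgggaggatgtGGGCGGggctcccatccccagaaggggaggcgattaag
Bmp5: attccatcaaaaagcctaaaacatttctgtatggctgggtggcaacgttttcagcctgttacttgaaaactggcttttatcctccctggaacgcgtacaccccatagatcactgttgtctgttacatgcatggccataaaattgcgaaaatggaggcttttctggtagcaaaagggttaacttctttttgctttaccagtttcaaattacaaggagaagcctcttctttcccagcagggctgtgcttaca

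The Gdf10 window held 4 GC box cores, which began 190, 54, 13 and 8 bases before the start, the Bmp4 window held 1, and the Bmp5 window held none. The motif occurred in 32.7% of 32851 mouse windows of this length. The share of G and C was 78.8% for Gdf10, which placed it at the 98.4 percentile of all windows, against 63.2% for Bmp4 and 42.8% for Bmp5. The Gdf10 window also held 35 CpG dinucleotides, against 11 for Bmp4 and 4 for Bmp5. No printed window held GGCGCC, a GC-rich SMAD site found in 9.59% of windows, TGTGGT, the RUNX core found in 14% of windows, or TATAAA, the TATA box core found in 12.4% of windows. Both strands were searched, no searched motif contains another, and a match is a description of the letters only.

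Levels were compared between ligands as CPM divided by the length of the annotated exons in kilobases, since longer genes collect more reads. Gdf10 stood first in both groups, at 14.1 CPM per kilobase in Control and 25.1 in BMAd-DTA. In Control it was followed by Bmp6 (12.6), Bmp4 (8.02), Bmp5 (5.57), Bmp2 (5.16), Bmp3 (3.62), Bmp8a (3.15) and Bmp7 (1.69). Gdf5 (0.284) and Gdf6 (0.203) were lowest. Among neighbors in this order, only Bmp2 and Bmp3, Bmp8a and Bmp7, and Bmp7 and Gdf5 had Control ranges that did not overlap. In BMAd-DTA the order was Gdf10, Bmp4 (11.1), Bmp6 (10.9), Bmp5 (6.70), Bmp3 (5.80), Bmp2 (5.57), Bmp8a (4.09), Bmp7 (3.32), Gdf6 (0.323) and Gdf5 (0.216). Neighboring ranges did not overlap there for Gdf10 and Bmp4, Bmp6 and Bmp5, and Bmp7 and Gdf6. The range of Gdf10 thus overlapped that of the next ligand in Control and lay above every value of the next ligand in BMAd-DTA.

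**Figure D1:**
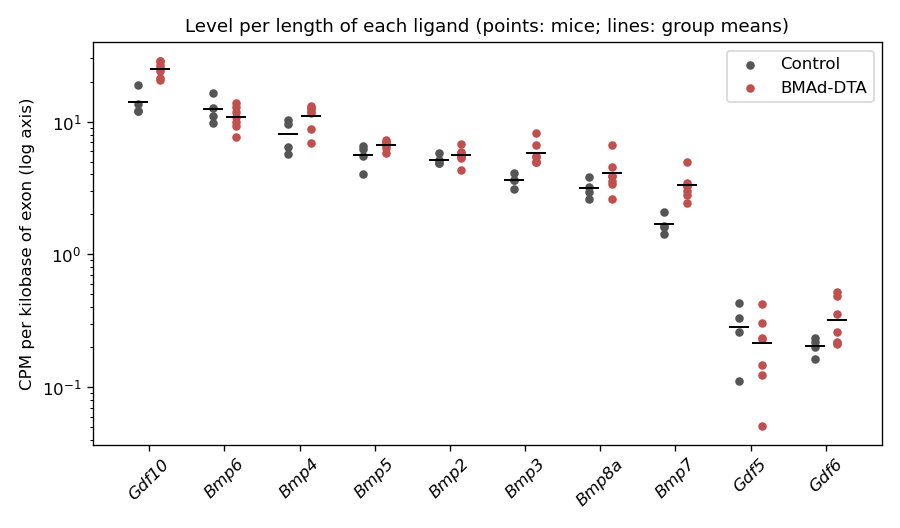
Level of each ligand as CPM per kilobase of exon (log axis), with points for mice, horizontal lines for group means, gray for the 4 Control and red for the 7 BMAd-DTA mice. Gdf10 is the highest ligand, at a mean of 14.1 in Control and 25.1 in BMAd-DTA, and Gdf5 and Gdf6 lie below all other ligands in every mouse.

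Of the summed level of the 10 ligands per kilobase, Gdf10 made up 25.9% ± 2.59 (SD, n = 4) in Control and 34.3% ± 2.36 (SD, n = 7) in BMAd-DTA. The Control shares ran from 22.3 to 28.2% and the BMAd-DTA shares from 30.9 to 37.4%, without overlap. Bmp6 made up 22.9% ± 1.74 (SD, n = 4) and 15.0% ± 2.81 (SD, n = 7), and its shares ran from 20.8 to 24.9% and from 9.36 to 18.0%, also without overlap. These shares were not tested, and a rise of 1 ligand lowers the share of every other. The sum itself was 54.4 ± 8.52 CPM per kilobase (SD, n = 4) in Control and 73.1 ± 7.32 (SD, n = 7) in BMAd-DTA, and its ranges of 47.2 to 66.5 and 63.9 to 82.4 overlapped.

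Between genotypes, Gdf10 was the ligand that passed the test, at 1.78 times the Control level. Bmp7 (1.96 times) and Bmp3 (1.60 times) were also higher in every BMAd-DTA mouse than in every Control mouse, but did not pass it. The other 7 ligands overlapped between the groups. The test was edgeR's quasi-likelihood test, with p-values adjusted by Benjamini and Hochberg over the 16496 genes, 2-sided, and a threshold of 0.05. Of the 10 ligands, 1 was called higher and none lower, against 0.0727% of all tested genes called higher and 0.00606% called lower. The unadjusted p was under 0.05 for 5 ligands, all higher (Gdf10, Bmp7, Bmp3, Bmp4 and Bmp5), against 7.89% of all genes higher and 8.53% lower. All BMAd-DTA mice lay above all Control mice for 3 ligands, against 1.78% of all genes, and below them for none, against 1.04%. Fold changes were positive for 8 ligands and negative for 2, and the median log2 fold change was 0.42, where that of all genes was 0.0018. DESeq2, run as an alternative, called Gdf10, Bmp7 and Bmp3 higher, and no ligand lower, against 2.78% of the genes to which it gave an adjusted p called higher and 2.64% called lower. Because the set of ligands was not chosen blind to these data, its counts beside the shares of all genes are a description only. In RNA from whole bone, a change in the number of cells that make a ligand and a change of its RNA per cell cannot be told apart.

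**Figure D2:**
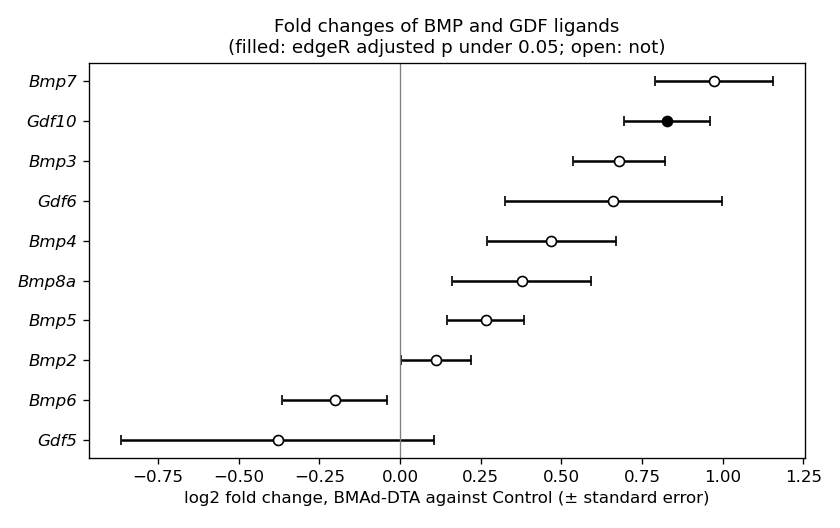
Log2 fold change of each ligand, BMAd-DTA against Control, with bars of ± 1 standard error and a filled point for an edgeR adjusted p under 0.05. Gdf10 is the only filled point, at 0.83, while Bmp7 lies further to the right at 0.97 with a wider bar, and Bmp6 and Gdf5 lie to the left of 0.

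Gdf10, on chromosome 14 (33923587 to 33937983, plus strand, GRCm38), encodes the secreted BMP3-like ligand GDF10. In the 4 Control mice it measured 63.1, 62.9, 97.6 and 71.0 CPM, and in the 7 BMAd-DTA mice it ran from 108 to 150 with a median of 133 CPM. Control replicate 3 was the highest Control, and the lowest BMAd-DTA mouse still exceeded it. The means were 73.7 ± 16.4 CPM (SD, n = 4) and 131 ± 16.9 CPM (SD, n = 7). The log2 fold change was 0.83 (SE 0.13), with an edgeR adjusted p of 0.0384, the 13th smallest p of the 13 genes called in either direction. Leaving out a library kept the edgeR call without Control replicate 3 (adjusted p = 0.0246) or Control replicate 4 (0.0487). The call was lost without Control replicate 1 (0.164) or 2 (0.140), and without BMAd-DTA replicate 1 (0.0560), 2 (0.0759), 3 (0.0700), 4 (0.0887), 5 (0.0589), 6 (0.0556) or 7 (0.0525). The log2 fold change stayed between 0.76 and 1.0 in those 11 fits. The unadjusted edgeR p of Gdf10 was 3.02e-05 with all mice, 3.26e-05 without BMAd-DTA replicate 1 and 2.59e-05 without BMAd-DTA replicate 6. It was largest, at 0.0002, without Control replicate 2. The adjusted p also depends on the p-values of all other genes. No gene at all was called without Control replicate 1 or 2 or BMAd-DTA replicate 1 or 6. With a skeletal muscle marker score as a covariate the log2 fold change of Gdf10 was 0.80 and the edgeR adjusted p 0.0904.

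Bmp3, on chromosome 5 (98854415 to 98884396, plus strand), encodes the family member that opposes osteogenic BMPs and is abundant in bone matrix. The Control mice measured 23.0, 27.0, 30.2 and 26.9 CPM, and the BMAd-DTA mice ran from 36.5 to 60.3 with a median of 40.1 CPM. The groups did not overlap, and BMAd-DTA replicate 3 was the highest. The means were 26.8 ± 2.93 CPM (SD, n = 4) and 42.9 ± 8.87 CPM (SD, n = 7). Bmp3 had a log2 fold change of 0.68 (SE 0.14) and an edgeR adjusted p of 0.0675. Bmp3 passed the threshold when Control replicate 3 was left out (edgeR adjusted p = 0.0458) and in DESeq2 (adjusted p = 0.000741). Its unadjusted edgeR p was 0.000363 with all mice and larger, at 0.000563, without Control replicate 3. That fit called 176 of all genes higher and 116 lower, and the adjusted p depends on the p-values of all genes.

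Bmp7, on chromosome 2 (172868012 to 172940321, minus strand), encodes a ligand needed for kidney and eye development that induces bone when applied as a protein. It measured 6.50, 8.42, 6.56 and 5.70 CPM in the Control mice, and from 9.80 to 19.9 with a median of 13.1 CPM in the BMAd-DTA mice. The groups did not overlap. BMAd-DTA replicate 3 stood apart at 19.9 CPM, and the next highest mouse had 14.0 CPM. The means were 6.80 ± 1.15 CPM (SD, n = 4) and 13.3 ± 3.22 CPM (SD, n = 7). The log2 fold change was 0.97 (SE 0.18), the largest of the 10 ligands, with an edgeR adjusted p of 0.0675. Without Control replicate 3 the edgeR adjusted p was 0.0462, and in DESeq2 with all mice it was 7.84e-05. The unadjusted edgeR p of Bmp7 was 0.00013 with all mice and larger, at 0.000645, without Control replicate 3. Its log2 fold change was 0.96 in that fit.

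**Figure D3:**
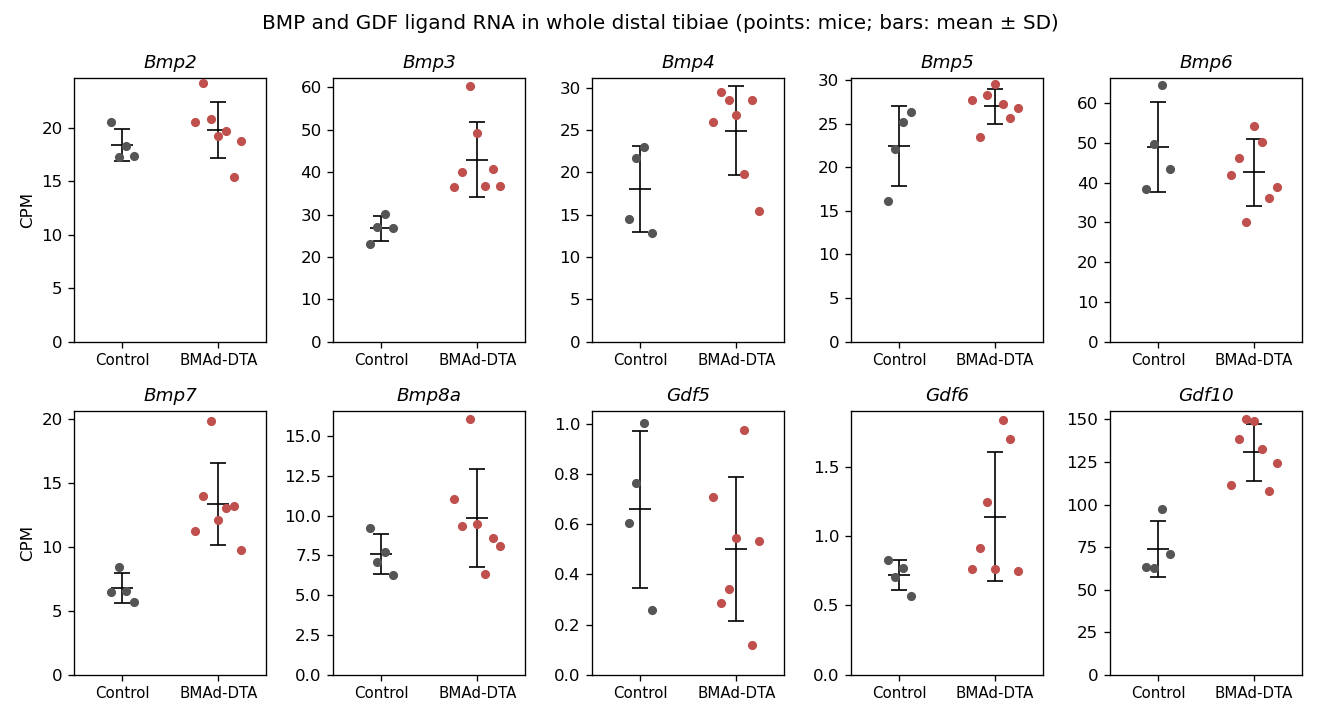
CPM of each ligand in every mouse, with Control in gray (n = 4), BMAd-DTA in red (n = 7) and bars for the mean ± SD, each panel on its own axis from 0. The groups separate for Bmp3, Bmp7 and Gdf10 and overlap for the other 7 ligands.

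Bmp2 and Bmp4 encode the closely related ligands that are most used to induce osteoblasts. Bmp2 (chromosome 2, 133552159 to 133562885, plus strand) measured 20.5, 17.3, 18.3 and 17.4 CPM in Control and 15.4 to 24.2 with a median of 19.7 CPM in BMAd-DTA. The ranges overlapped, and the log2 fold change of 0.11 (SE 0.11) was within the spread (edgeR adjusted p = 0.674). Bmp4 (chromosome 14, 46383520 to 46390669, minus strand) measured 14.5, 21.7, 23.0 and 12.9 CPM in Control and 15.4 to 29.5 with a median of 26.8 CPM in BMAd-DTA. Control mice fell into a lower and a higher pair, while 5 of 7 BMAd-DTA mice exceeded all of them. Bmp4 had a log2 fold change of 0.47 (SE 0.20), with an unadjusted p of 0.0358 and an edgeR adjusted p of 0.262. Its unadjusted p rose above 0.05 without Control replicate 1 (0.106) or 4 (0.125) or BMAd-DTA replicate 1, 2, 3, 4 or 6 (0.0528 to 0.0636), and the log2 fold change was lowest, at 0.34, without Control replicate 4.

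Bmp5, Bmp6 and Bmp8a belong to the same branch of the family as Bmp7. Bmp5 (chromosome 9, 75775364 to 75900310, plus strand), whose loss causes the short ears of the short-ear mouse, measured 16.1, 22.0, 25.2 and 26.3 CPM in Control. In BMAd-DTA it ran from 23.5 to 29.5 with a median of 27.3 CPM, and 5 of 7 mice lay above every Control. Its log2 fold change was 0.27 (SE 0.12), with an unadjusted p of 0.0428 and an edgeR adjusted p of 0.283. Without Control replicate 1, the lowest mouse, the log2 fold change was 0.14. The unadjusted p rose above 0.05 without that mouse (0.154), without Control replicate 2 or BMAd-DTA replicate 1, 3, 4, 5 or 7 (0.0570 to 0.0829) and with unstranded counts (0.158). With the skeletal muscle score as a covariate, the unadjusted edgeR p of Bmp5 was 0.0662. Bmp5 shares 1878 exon bases with Gm26903 on the opposite strand, so its value rests on strand-specific counting. Over the 11 libraries 4934 reads were assigned to it with strand and 2206 without.

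Bmp6 (chromosome 13, 38345107 to 38500302, plus strand), known for its control of hepcidin and iron, was the ligand with the second highest level per length in Control. It measured 38.3, 49.7, 64.5 and 43.4 CPM in Control and 30.1 to 54.3 with a median of 42.0 CPM in BMAd-DTA. No BMAd-DTA mouse lay above every Control and 2 of 7 lay below every Control, so that the groups largely overlapped. Its log2 fold change was -0.20 (SE 0.16, edgeR adjusted p = 0.589). The value rested largely on Control replicate 3, the highest Control, without which it was -0.039, and it was -0.30 without Control replicate 1 and -0.13 without BMAd-DTA replicate 3. Of the reads on either strand of Bmp6, 6.45% were antisense, and its exons share 224 bases with Txndc5 on the opposite strand.

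Bmp8a (chromosome 4, 123312645 to 123343252, minus strand) has the close paralog Bmp8b on the same chromosome, and reads that match both genes were not counted, so both values are uncertain. It measured 9.20, 7.07, 7.74 and 6.27 CPM in Control and 6.31 to 16.1 with a median of 9.34 CPM in BMAd-DTA. BMAd-DTA replicate 3 was again the highest, with 4 of 7 BMAd-DTA mice over the highest Control. The difference was 0.38 on the log2 scale (SE 0.22, edgeR adjusted p = 0.408). Bmp8b was rarer, at 0.695 ± 0.222 CPM (SD, n = 4) in Control and 1.05 ± 0.443 CPM (SD, n = 7) in BMAd-DTA (log2 fold change 0.59, edgeR adjusted p = 0.471).

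Gdf5 and Gdf6 encode ligands of joint and tendon formation and were near the limit of what was counted. Gdf5 (chromosome 2, 155941023 to 155945367, minus strand) measured 0.606, 0.766, 1.0 and 0.259 CPM in Control and 0.117 to 0.976 with a median of 0.533 CPM in BMAd-DTA. The ranges overlapped (log2 fold change -0.38, SE 0.48, edgeR adjusted p = 0.758; -0.10 without Control replicate 3), and its exons share 936 bases with Gm15557 on the opposite strand. Gdf6 (chromosome 4, 9844372 to 9862345, plus strand) measured 0.827, 0.707, 0.768 and 0.570 CPM in Control and 0.746 to 1.84 with a median of 0.917 CPM in BMAd-DTA. For Gdf6, 4 of 7 BMAd-DTA mice exceeded all Controls, and the log2 fold change was 0.66 (SE 0.33, edgeR adjusted p = 0.345). At these depths the size of either difference was poorly determined.

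The summed markers of bone-forming cells separated the genotypes in the same direction as Bmp3, Bmp7 and Gdf10. The largest parts of that sum were Col1a1 (1245 to 6226 CPM in Control, 7609 to 18037 CPM in BMAd-DTA) and Col1a2 (1021 to 5230 and 5464 to 15194 CPM). All 10 osteoblast and osteocyte markers had a positive log2 fold change (median 1.06), as did 8307 of all 16496 genes. All BMAd-DTA mice lay above all Control mice for 4 of the 10, against 1.78% of all genes, and the groups overlapped for the others. The unadjusted p was under 0.05 for 9, all higher, against 7.89% of all genes higher. Alpl, the tissue-nonspecific alkaline phosphatase of mineralizing cells, passed the test, with 97.2 to 183 CPM in Control and 275 to 425 CPM in BMAd-DTA (log2 fold change 1.16, edgeR adjusted p = 0.0326). Control replicate 1 had the lowest summed level of the list, 3243 CPM, and BMAd-DTA replicate 3 the highest, 36614 CPM. That mouse was also the highest in Bmp3, Bmp7, Bmp8a and Gdf10. None of the 10 markers was at 0 in any library.

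With the mean log2 level of these markers as a covariate in the edgeR fit, a setting chosen after the data were seen, no ligand and no other gene was called. In that fit 620 genes had an unadjusted p under 0.05, against 2708 without the covariate. The log2 fold change of Gdf10 was then 0.43 (SE 0.17, unadjusted p = 0.0236, edgeR adjusted p = 1.0), that of Bmp7 was 0.53 and that of Bmp3 was 0.23. The values of Bmp4 (-0.10) and Bmp5 (-0.022) changed sign. All 10 markers of the score had a positive fold change, so that the score and the genotype went together. The part of the bone-forming cells and that of the genotype therefore cannot be told apart by this fit. Whether the score itself overlapped between genotypes was not examined.

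**Figure D4:**
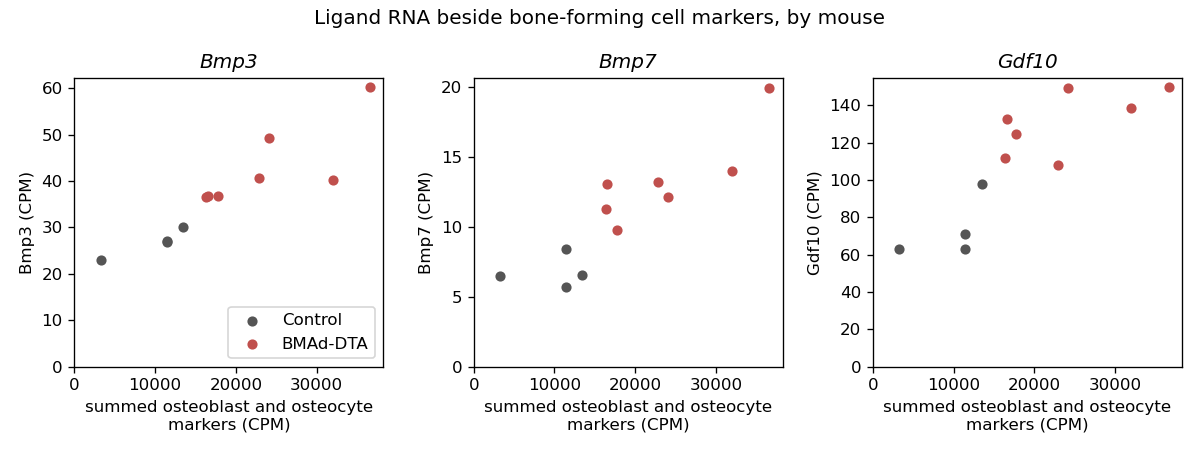
CPM of Bmp3, Bmp7 and Gdf10 in each mouse (vertical axes) against the summed CPM of 10 osteoblast and osteocyte markers (horizontal axes), Control in gray and BMAd-DTA in red. Both axes separate the genotypes, and BMAd-DTA replicate 3 lies farthest to the right and highest in all 3 panels.

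Markers of other tissues that a distal tibia can hold were also measured. The 7 chondrocyte markers summed to 195 to 365 CPM in Control and 496 to 658 CPM in BMAd-DTA, without overlap. Most of that was Col2a1, the main cartilage collagen, at 105 to 271 and 393 to 580 CPM (log2 fold change 1.11, edgeR adjusted p = 0.0675). Of the 6 tested, it was the only 1 without overlap, where 1.78% of all genes had every BMAd-DTA mouse above every Control. Acan (log2 fold change 0.18), Col10a1 (0.15), Sox9 (0.19), Col9a1 (0.95) and Cnmd (-0.037) overlapped, with edgeR adjusted p from 0.284 to 0.984. Matn3, a cartilage matrix gene, was at 0 in some libraries of both groups. Tendon markers summed to 120 to 164 and 123 to 261 CPM, marrow stroma markers to 2782 to 4362 and 2723 to 4581 CPM, and endothelial markers to 397 to 455 and 343 to 443 CPM, all with overlap. The part of cartilage RNA in the ligand differences was not tested.

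The other genes of the BMP pathway were taken from lists by role, 58 genes in all besides the 10 ligands, of which 54 were in the table and 48 were tested. edgeR called none of the 48 in either direction, against 0.0788% of all genes. At an unadjusted p under 0.05 there were 17 higher and 3 lower, or 20 of 48, where 16.4% of all genes passed that level in either direction. All BMAd-DTA mice lay above all Control mice for 7 of the 48, where this held for 1.78% of all genes, and below them for none, where this held for 1.04%. Of their fold changes, 38 were positive and 10 negative, and the median was 0.23 on the log2 scale. DESeq2 called 11 higher (Sost, Id3, Dlx5, Pcsk5, Pcsk6, Neo1, Smad6, Bambi, Hey1, Nbl1 and Bmper), against 2.78% of all genes, and none lower, against 2.64%. In limma-voom none was called.

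**Figure D5:**
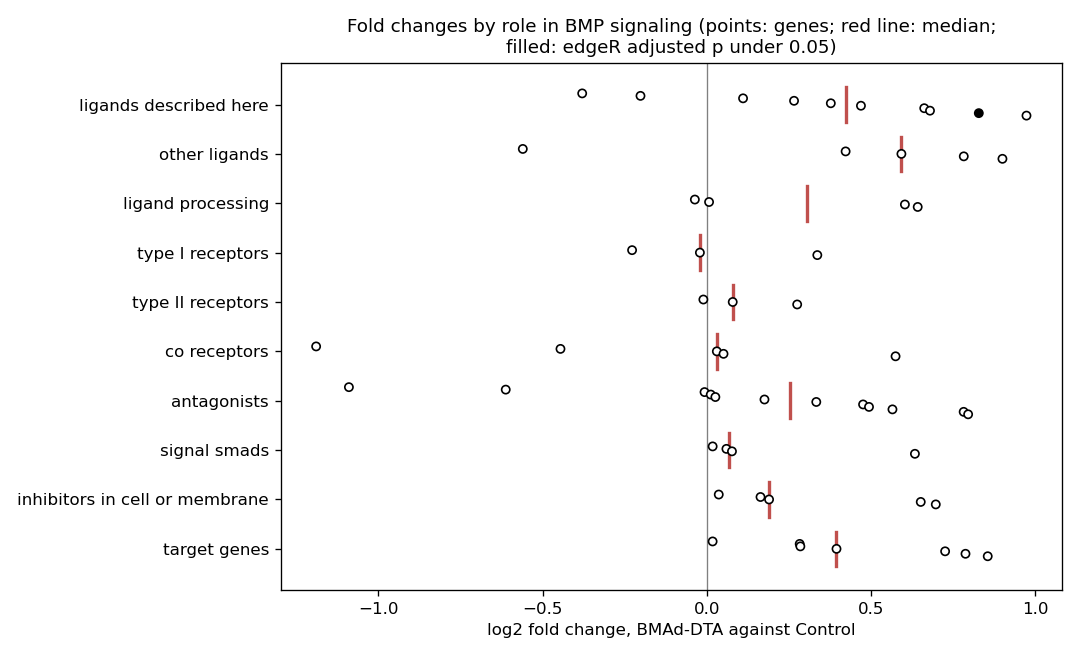
Log2 fold change (BMAd-DTA against Control) of each tested gene by its role in BMP signaling, with points for genes, a red line for the median of each role and a filled point for an edgeR adjusted p under 0.05. The ligands described here have a median of 0.42 and the target genes one of 0.39, while the medians of type I and type II receptors lie near 0.

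Among the 4 listed enzymes that cleave ligand precursors, Pcsk5 and Pcsk6 were higher in all 7 BMAd-DTA mice than in every Control. This held for 1.78% of all genes. Pcsk5 was at 10.9 ± 1.51 CPM (SD, n = 4) in Control and 17.1 ± 2.01 CPM (SD, n = 7) in BMAd-DTA (log2 fold change 0.64, SE 0.12, edgeR adjusted p = 0.0675). Pcsk6 was at 66.6 ± 9.37 and 101 ± 16.0 CPM (log2 fold change 0.60, SE 0.12, edgeR adjusted p = 0.0675). The adjustment can give several genes the same value, and the unadjusted edgeR p was 0.000113 for Pcsk5 and 0.000298 for Pcsk6. The other convertases of the list, Furin and Pcsk7, named after their values were seen, had log2 fold changes of 0.0067 (edgeR adjusted p = 0.977) and -0.037 (edgeR adjusted p = 0.824).

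None of the tested receptors and co-receptors passed edgeR's test. At an unadjusted p under 0.05, 1 of 3 type I receptors was higher and 1 lower, and 1 of 5 co-receptors was higher. Of all genes, 7.89% were higher and 8.53% lower at that level. Acvr1, which encodes the type I receptor ALK2, was at 14.1 to 15.3 CPM in Control and 15.8 to 23.5 CPM in BMAd-DTA (log2 fold change 0.34, edgeR adjusted p = 0.152). Acvrl1, the type I receptor ALK1 of endothelium, was at 79.0 ± 6.40 and 67.4 ± 6.75 CPM (log2 fold change -0.23, edgeR adjusted p = 0.185). Of the type II receptors, Acvr2b had a log2 fold change of 0.27 (SE 0.23, edgeR adjusted p = 0.604) and Acvr2a 0.079 (SE 0.12, edgeR adjusted p = 0.808). Among co-receptors, Neo1, which encodes neogenin, a partner of repulsive guidance molecules, was at 46.3 ± 5.52 and 69.0 ± 10.6 CPM and did not overlap between groups (log2 fold change 0.57, SE 0.11, edgeR adjusted p = 0.0675). Rgma, which encodes such a molecule, had a log2 fold change of -0.45 (SE 0.24, edgeR adjusted p = 0.370). The co-receptor Hjv, named after its values were seen, had the largest fold change in size of the pathway genes tested, at -1.19 on the log2 scale with a wide error (SE 1.02, edgeR adjusted p = 0.616).

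Antagonists spanned both directions, from -1.09 to 0.80 on the log2 scale, with 9 of 12 tested genes positive, against 8307 of all 16496 genes. Sost, which encodes the osteocyte product sclerostin, known chiefly as a Wnt inhibitor, had the smallest p. It measured 97.0 to 144 CPM in Control and 157 to 278 CPM in BMAd-DTA, without overlap (log2 fold change 0.80, SE 0.16, edgeR adjusted p = 0.0675). Nbl1, a secreted antagonist of the DAN family, had a log2 fold change of 0.48 (SE 0.13, edgeR adjusted p = 0.108). Among inhibitors of signaling in the cell or its membrane, all 5 had a positive fold change, against 8307 of all 16496 genes. Smad7 (0.19), Smurf1 (0.16) and Smurf2 (0.036), named after their values were seen, had small log2 fold changes, with edgeR adjusted p from 0.370 to 0.864. Smad6, an inhibitory SMAD, was at 12.1 ± 0.390 and 19.1 ± 3.66 CPM (log2 fold change 0.65, SE 0.15, edgeR adjusted p = 0.0720). Bambi, a receptor-like protein without a kinase domain, was at 18.9 ± 3.14 and 30.7 ± 8.52 CPM (log2 fold change 0.70, SE 0.19, edgeR adjusted p = 0.106).

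Among the signaling SMADs, Smad9 had a log2 fold change of 0.63 (SE 0.25, edgeR adjusted p = 0.223) and Smad5 one of 0.076 (SE 0.056, edgeR adjusted p = 0.537). All 7 tested target genes had a positive fold change, as did 8307 of all 16496 genes. Of the 7, 4 were higher at an unadjusted p under 0.05, against 7.89% of all genes. Dlx5, a homeobox gene of osteoblasts, was at 13.3 to 14.7 CPM in Control and 18.7 to 34.6 CPM in BMAd-DTA, without overlap (log2 fold change 0.79, SE 0.14, edgeR adjusted p = 0.0663). Id3, which encodes an inhibitor of basic helix-loop-helix factors, was at 37.2 ± 8.80 and 61.4 ± 8.13 CPM, and 6 of 7 BMAd-DTA mice exceeded all Controls (log2 fold change 0.73, SE 0.14, edgeR adjusted p = 0.0675). Several of these genes, Dlx5 and Sost among them, are also genes of bone-forming cells, whose summed markers did not overlap between genotypes.

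The rest of the ligand family was mostly rare, and 5 of 11 listed ligands were tested. Gdf3 was at 10.5 ± 2.09 CPM (SD, n = 4) in Control and 7.09 ± 2.15 CPM (SD, n = 7) in BMAd-DTA, and 6 of 7 BMAd-DTA mice lay below every Control (log2 fold change -0.56, SE 0.20, edgeR adjusted p = 0.176). Gdf11 was at 11.1 ± 2.06 and 14.8 ± 2.75 CPM (log2 fold change 0.42, SE 0.17, edgeR adjusted p = 0.222).

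Within the groups, ligands varied together only in part. After each gene was centered on its group mean, Bmp3 and Bmp7 had the highest correlation of any pair of ligands over the 11 mice (r = 0.65), and Bmp3 and Gdf10 came next (r = 0.65). BMAd-DTA replicate 3 was the highest mouse for both Bmp3 (60.3 CPM, next 49.3) and Bmp7 (19.9 CPM, next 14.0). How far the correlation of this pair rests on that mouse was not tested. The genes most like Gdf10 by the same centered correlation, among 12965 genes that averaged 50 or more counts, were Pde1a (r = 0.93), Plcg1 (0.91), Zfp780b (0.91), Tigd2 (0.91) and Nlrc3 (0.91). They are the top of a long ranking over 11 mice, and their fold changes between genotypes differed. Pde1a, a calcium-dependent phosphodiesterase, had a log2 fold change of 0.43 (SE 0.087, edgeR adjusted p = 0.0675), while that of Tigd2 was 0.0010 (SE 0.11, edgeR adjusted p = 0.997).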

How the data were processed

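Bulk RNA-seq of the whole distal tibia gave 1 library for each of 11 mice, 4 Control and 7 BMAd-DTA. The deposited values are raw counts of reads per gene, which the authors made from strand-specific paired-end reads after quality checks (FastQC 0.11.9) and alignment to mm10 with STAR (version and annotation release not given in the sources used here). The merged count table equaled the second-strand column of the per-library files for every ligand, and its totals ran from 16969529 to 18637663. Reads without a unique gene (unmapped 9.10 to 15.1%, multimapping 6.68 to 9.07%, no feature 6.58 to 8.44% and ambiguous 1.49 to 1.70% of all reads) were left out. The authors' own test was DESeq2 with genotype as the main effect.

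From the counts, genes were filtered by group (filterByExpr), scaled by TMM and tested with edgeR 4.0.16 in R 4.3.3 (quasi-likelihood test, genotype only, 2-sided, Benjamini-Hochberg over 16496 genes, threshold 0.05). CPM used TMM-scaled totals, and lengths were unions of GENCODE M21 exons. A fold change was called only past that threshold. Replicate numbers follow the order of the sample list and pair no samples. The p-values weigh the difference between genotypes against the spread between these mice. The scripts were tested on simulated data.

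The named genes were all 10 ligands, of each role list the genes called or else the 2 with the smallest p, and the 5 genes most like the ligand with the smallest p. The ligands and lists were chosen with earlier results of these data known. Alternatives were DESeq2 1.42.0, limma-voom (limma 3.58.1), DESeq2's size factors in edgeR, no filter, unstranded counts, a skeletal muscle score as a covariate, the longest transcript as length, and leaving out each library. An osteoblast and osteocyte score as a covariate was added after seeing the data.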

Additional observations from a re-analysis of the deposited data

Results flagged for a closer look

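Bmp7 in BMAd-DTA replicate 3 was a high value within its group, at 19.9 CPM, and the next highest of the 7 mice had 14.0 CPM. The gap, divided by the range of the group, was 0.587, just above Dixon's critical value for 7 samples. It was the only such value among 20 tests (10 ligands in both groups), and chance gives about 1 in 20. Without this mouse the log2 fold change of Bmp7 was 0.85 (edgeR adjusted p = 0.0543), against 0.97 (0.0675) with all mice.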

How the results depend on the processing

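The log2 fold changes of the 10 ligands kept their direction in every setting run except the osteoblast and osteocyte covariate, chosen after seeing the data, where Bmp4 was -0.10 and Bmp5 was -0.022. DESeq2 called 3 ligands and 11 pathway genes higher, and 433 genes of all higher and 412 lower, where edgeR called 1, 0, 12 and 1. The skeletal muscle covariate left 0 ligands and 2 genes of all called higher, and the osteoblast covariate left 0 ligands, 0 higher and 0 lower. Genes called lower numbered 5 with DESeq2's size factors, 6 with limma-voom and 2 with unstranded counts, where Gdf5 was not tested. Leaving out each library in turn gave 0 to 3 ligands higher, 0 to 7 pathway genes higher, 0 to 176 genes of all higher and 0 to 116 lower, with the highest counts without Control replicate 3. No pathway gene or ligand was called lower in any setting. Gdf10 kept its call with DESeq2's size factors (edgeR adjusted p = 0.0386), no filter (0.0289), limma-voom (0.0327), unstranded counts (0.0384) and DESeq2 (1.33e-06). With the longest transcript as length, Bmp3 in Control was 4.05 CPM per kilobase in place of 3.62. The cause of these changes was not tested. Between 9.82 and 17.4 counts per library, the depth leaves Gdf5 and Gdf6 poorly determined.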
